A study of Mus musculus with 15 samples.

Results

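The 10 genes described here carry out antigen presentation by the major histocompatibility complex (MHC). They are 6 genes of the class I pathway (H2-K1, H2-D1, B2m, Tap1, Tapbp and Psmb8) and 4 of class II (Cd74, H2-Aa, H2-Ab1 and H2-Eb1). They were taken by symbol from a deposited table of RPKM, the number of reads of a transcript scaled to its length and to the mapped reads of the library, and the values of all transcripts of a symbol were added. All 10 were among the 10222 genes of the table. The level of each gene is given per transcript length, so levels of different genes can be set side by side within a library, while comparisons between libraries also depend on the scaling examined below.

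RNA was sequenced from 5 cell populations sorted directly from C57BL/6 mice heterozygous for an Il33-citrine reporter, a fluorescent protein placed in the locus of the cytokine IL-33. Every population therefore came from animals with the reporter allele. Mesenchymal stromal cells (MSC) of mesenteric white adipose tissue (WAT) lacked the lineage markers, CD45, Epcam, CD31 and CD24, carried PDGFRα, CD34, Sca1 and podoplanin, and were divided by citrine into Il33+ and Il33- WAT-MSC. Il33+ MSC and Epcam+ epithelial cells came from lung, and CD31+ endothelial cells came from WAT. There were 3 libraries of each population, 15 in all, from independent experiments, and age, sex and the number of mice in a library were not given in the sources used here. The labels place the epithelial cells in lung, and the series text names WAT in its account of the sort. The surface antigens CD45 and Epcam were part of the gates, so the cells of interest were meant to be free of leukocytes.

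Class I molecules are a heavy chain, here H2-K1 or H2-D1, held by the light chain β2-microglobulin, the product of B2m. They show peptides from inside the cell to CD8+ T cells, and nearly all nucleated cells make them. Psmb8 is a catalytic subunit of the immunoproteasome that cuts such peptides, Tap1 is a subunit of the transporter that brings them into the endoplasmic reticulum, and Tapbp (tapasin) helps to load them. Class II molecules show peptides from outside the cell to CD4+ T cells. They are made by professional antigen-presenting cells and, at lower levels, by some other cells, among them type 2 pneumocytes and endothelial cells. H2-Aa and H2-Ab1 encode the α and β chains of the molecule I-A, and H2-Eb1 encodes the β chain of I-E. Mice of the C57BL/6 strain have no functional I-E α chain. Cd74, the invariant chain, holds the peptide groove of a new class II molecule until it reaches the endosome. The transcription factors RFX and NF-Y bind the X and Y boxes of class II promoters and recruit the coactivator CIITA, while NF-κB and interferon regulatory factors act on the class I promoters.

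Of the members, 8 had a promoter entry in RefSeq (assembly GRCm38.p6), and H2-Ab1 and Cd74 had none. The 250 bases before the start of 2 class I and 2 class II genes are shown because members of each class varied together across the populations. On GRCm38 the class I and class II members other than B2m and Cd74 lie on chromosome 17, from Tapbp (start 33915899) through H2-K1, Tap1, Psmb8 and the class II chains to H2-D1 (end 35267499), and B2m lies on chromosome 2. Capitals mark matches, on either strand, to the interferon regulatory factor core AANNGAAA, the CCAAT box, a κB core GGGNNTTCC and an X box core, CTNGCAACT. The letters of the last pair were chosen after the sequences were read.
H2-K1 (chr17:34000348-34000597, minus strand): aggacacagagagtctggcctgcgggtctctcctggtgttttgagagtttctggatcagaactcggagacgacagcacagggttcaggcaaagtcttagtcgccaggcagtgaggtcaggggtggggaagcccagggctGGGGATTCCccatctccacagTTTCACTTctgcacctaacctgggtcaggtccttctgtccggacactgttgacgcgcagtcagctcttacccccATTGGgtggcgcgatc
B2m (chr2:122147437-122147686, plus strand): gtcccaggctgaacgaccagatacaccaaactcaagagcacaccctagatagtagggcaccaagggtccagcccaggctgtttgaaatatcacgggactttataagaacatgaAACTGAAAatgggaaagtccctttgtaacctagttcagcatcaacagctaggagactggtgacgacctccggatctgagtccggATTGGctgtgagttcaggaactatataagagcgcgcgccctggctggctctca
H2-Aa (chr17:34287824-34288073, minus strand): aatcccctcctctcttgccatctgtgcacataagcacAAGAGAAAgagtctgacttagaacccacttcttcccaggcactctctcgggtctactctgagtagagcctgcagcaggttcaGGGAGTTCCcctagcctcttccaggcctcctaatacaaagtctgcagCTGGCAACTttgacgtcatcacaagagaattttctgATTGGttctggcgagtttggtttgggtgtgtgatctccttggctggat
H2-Eb1 (chr17:34305617-34305866, plus strand): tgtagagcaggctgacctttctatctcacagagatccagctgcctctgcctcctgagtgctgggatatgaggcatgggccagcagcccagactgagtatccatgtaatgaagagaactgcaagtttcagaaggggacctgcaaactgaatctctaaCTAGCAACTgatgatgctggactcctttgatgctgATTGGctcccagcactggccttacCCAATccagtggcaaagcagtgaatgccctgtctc
The κB core of H2-K1 began at position -111 from the start and its interferon regulatory factor core at -90. H2-D1 carried matches to both at -171 and -150. B2m had an interferon regulatory factor core at -137 and a reverse CCAAT box at -53. In H2-Aa a κB core began at -131, and the X box core began at -84 and was followed, after 27 bases, by ATTGG, the reverse of CCAAT. In H2-Eb1 it began at -94 and the gap was 26 bases. Among 32851 promoter windows of the same length, CCAAT occurred in 33.8%, the interferon regulatory factor core in 21.3%, the κB core in 4.98% and the X box core in 0.779%. An X box core followed by ATTGG within 40 bases occurred in 10 windows (0.0304%). A match describes letters and not a bound site.

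The cell identities were checked before the comparisons. The summed RPKM of 8 endothelial markers was 482.6 to 547.8 in the endothelial libraries and at most 68.13 in any other library. The 9 stromal markers summed to between 4586 and 9730 in the MSC populations, to between 2042 and 4326 in the endothelial libraries and to no more than 257.7 in the epithelial ones. Type 2 pneumocyte markers summed to between 1689 and 3515 in the epithelial cells, between 42.66 and 144.3 in the lung MSC and no more than 6.27 elsewhere. The 6 mesothelial markers in the table summed to 56.43 to 202.6 in the endothelial libraries, 33.91 to 109.6 in the Il33+ WAT-MSC and 20.78 to 33.42 in the Il33- WAT-MSC. They summed to 4.7 to 6.81 in the lung MSC and 81.94 to 154.4 in the epithelial cells, where Krt19 gave 75.54 to 152.76. The part of mesothelial RNA in the class II levels was not tested. In the epithelial libraries a single gene, the club cell secretoglobin Scgb1a1, made up 57.66% to 62.87% of the summed RPKM, against at most 0.248% elsewhere. This is a share of length-scaled values and not of reads, and the share of reads was not computed. Reads taken by a single gene lower the RPKM of all others in its library. Libraries had 42711843 to 60773158 alignments. Transcripts listed at 0 were 10.94% of the table in endothelial replicate 1, 7.411% in Il33- WAT-MSC replicate 1 and fewer in the other libraries. Ptprc, the gene of CD45, was not in the table used here, nor were 3 others of 10 leukocyte genes. The remaining 6 (Laptm5, Tyrobp, Fcer1g, Cd53, Cd52 and Lcp1) were summed, and the sum was 1.83 to 12.93 in the WAT-MSC, 13.22 to 71.54 in the endothelial cells, 25.49 to 41.41 in the lung MSC and 61.53 to 78.27 in the epithelial cells. In each of these bulk libraries, fewer cells of a type and less RNA per cell cannot be told apart. Of 10 dendritic cell markers 2 were in the table, Cst3, which the MSC also expressed at 66.2 RPKM or more, and Zbtb46, which was at 22.47 in replicate 1 of the endothelial cells and at most 1.12 in all other libraries. Zbtb46 is a transcription factor of both classical dendritic cells and endothelium. Of 10 B cell markers 1 was in the table, and it was highest, at 7.32, in replicate 1 of the epithelial cells.

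The class I genes were present in every population and lowest in the lung epithelial cells, whereas the class II genes were lowest in the WAT-MSC and highest in endothelial and epithelial cells. By mean RPKM as deposited, the epithelial cells ranked last for 6 of 6 class I genes and first for 4 of 4 class II genes. Their libraries overlapped with the next population for H2-K1 and Tap1. The class I ranks also depend on scaling, and the difference of H2-K1 from lung MSC was smaller when Scgb1a1 was left out, as given below. Epithelial cells were not tested against either WAT-MSC population. Endothelial cells ranked first for 5 of the class I genes, with Tapbp as the exception. Across the 15 libraries the log2 levels of the class II genes had pairwise Pearson correlations of 0.77 to 0.972 (median 0.887, 6 pairs). The class I genes had correlations of 0.582 to 0.939 (median 0.76, 15 pairs), and pairs from different classes ranged from -0.349 to 0.348 (median -0.024, 24 pairs). These are descriptions over 15 libraries that share populations, replicate numbers and sequencing lanes.

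**Figure D1:**
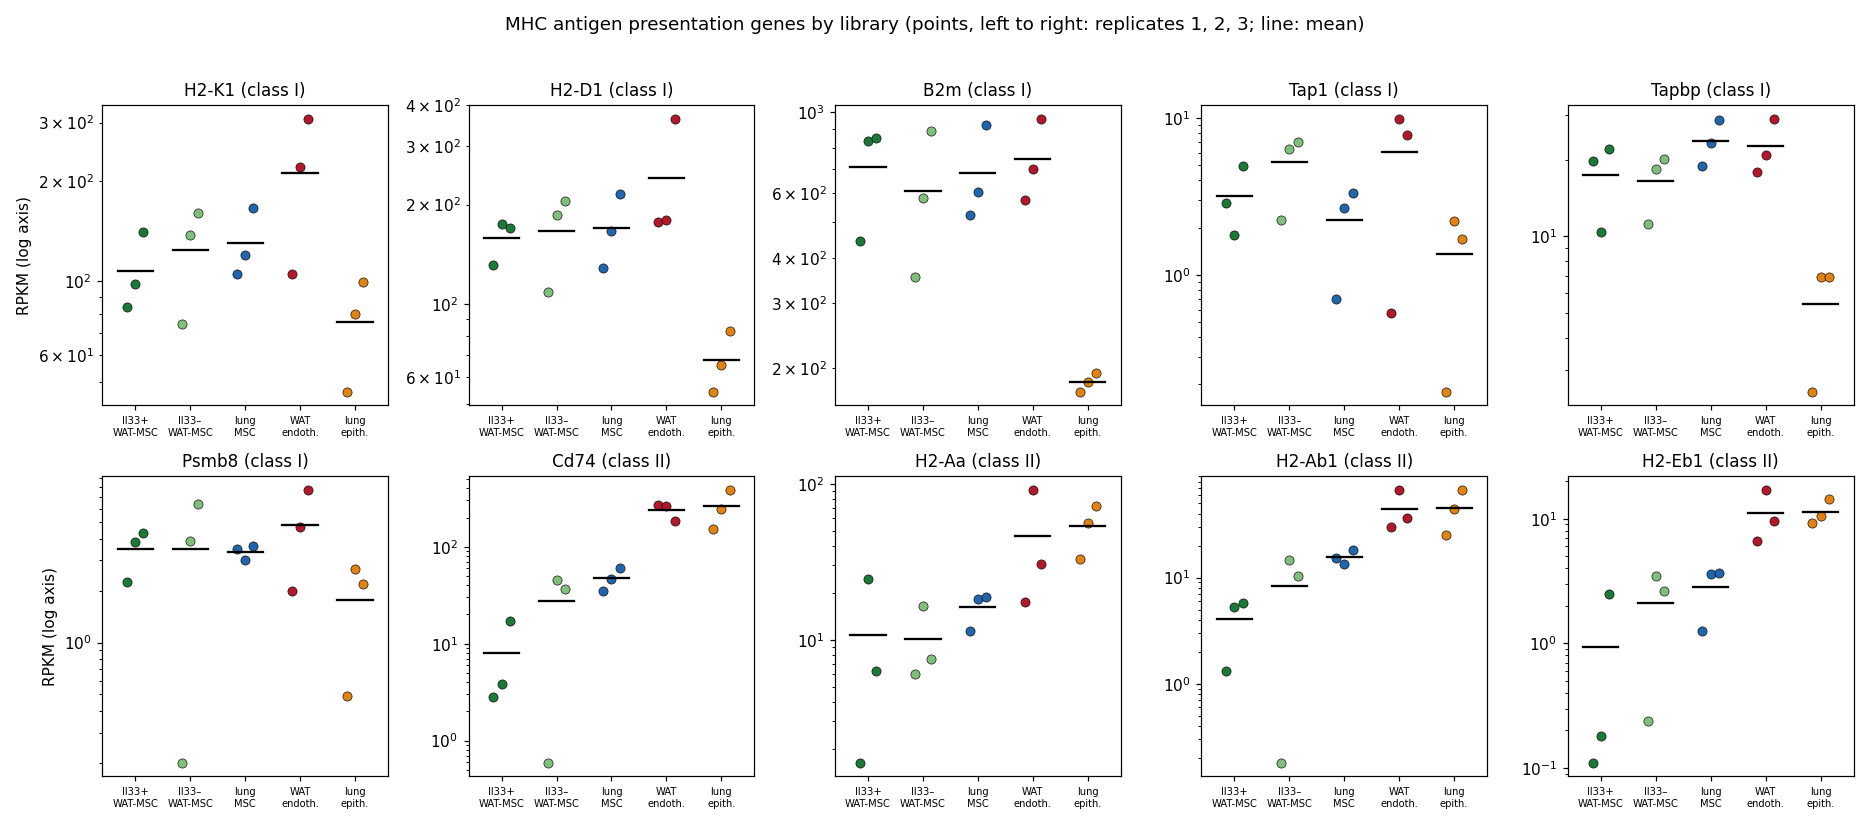
RPKM of the 10 genes in every library, on log axes with a different range in each panel. Points are replicates 1, 2 and 3 from left to right and lines are means of the 3 libraries. B2m of the epithelial cells lies between 172.22 and 193.46, below all other libraries, and Cd74 of endothelial and epithelial cells lies between 152.58 and 386.81, above all MSC libraries.

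Cd74 was the most abundant class II gene in endothelial and epithelial cells and in lung MSC. Its RPKM was 2.81, 3.8 and 17.17 in replicates 1, 2 and 3 of the Il33+ WAT-MSC and 0.59, 45.41 and 36.76 in those of the Il33- WAT-MSC. It was 34.91, 46.02 and 60.22 in the lung MSC, 271.95, 263.5 and 185.6 in the endothelial cells and 152.58, 244.86 and 386.81 in the epithelial cells. Endothelial and epithelial libraries overlapped with each other and lay above every MSC library. The lung MSC libraries overlapped with the Il33- WAT-MSC, whose replicate 1 was far below its other 2 libraries. The table splits Cd74 between a pair of transcripts. Of summed Cd74, the less abundant transcript had 9.72% to 12.5% in the epithelial libraries. In the endothelial libraries it had 1.14%, 15.7% and 14.1%, so replicate 1 stood apart in this share although its total was the highest of the 3.

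The I-A chains followed a similar order with more overlap. H2-Aa was at 1.63, 24.43 and 6.31 RPKM in the Il33+ WAT-MSC, 6.08, 16.57 and 7.53 in the Il33- WAT-MSC, 11.42, 18.19 and 18.83 in the lung MSC, 17.38, 91.38 and 30.52 in the endothelial cells and 33.08, 56.15 and 71.72 in the epithelial cells. Neighbouring populations overlapped throughout this order, and replicate 2 was the highest library in both WAT-MSC populations and in the endothelial cells. H2-Ab1 was at 1.33, 5.27 and 5.72 in the Il33+ WAT-MSC, 0.18, 14.56 and 10.45 in the Il33- WAT-MSC, 15.2, 13.48 and 18.38 in the lung MSC, 30.2, 67.14 and 36.37 in the endothelial cells and 25.09, 44.25 and 66.66 in the epithelial cells. For H2-Ab1 the endothelial libraries lay above all lung MSC libraries. The partners of the I-A molecule were of similar level in most libraries, with H2-Aa over H2-Ab1 between 0.5755 and 1.361 in 13 of them. The exceptions were Il33+ WAT-MSC replicate 2, with 4.636, and Il33- WAT-MSC replicate 1, with 33.78.

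H2-Eb1 was the least abundant class II gene by mean in all 5 populations. It was at 0.11, 0.18 and 2.5 RPKM in the Il33+ WAT-MSC, 0.24, 3.46 and 2.61 in the Il33- WAT-MSC, 1.25, 3.6 and 3.7 in the lung MSC, 6.61, 17.1 and 9.67 in the endothelial cells and 9.26, 10.56 and 14.46 in the epithelial cells. Every endothelial and epithelial library was above every MSC library. The ratio of H2-Eb1 to H2-Ab1 was 0.2189 to 0.2659 in the endothelial cells and 0.2169 to 0.3691 in the epithelial cells.

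Endothelial cells were compared with Il33+ WAT-MSC, another population of the same tissue, to see how MHC genes differ between cell types of WAT. Cd74 was higher by 5.10 ± 0.54 (SE) on the log2(RPKM + 1) scale, 34.4-fold (limma, Benjamini-Hochberg adjusted p = 0.00143, n = 3 in each group), and H2-Ab1 was higher by 3.22 ± 0.48, 9.32-fold (adjusted p = 0.00742). H2-Eb1 was higher by 2.77 ± 0.57, 6.84-fold (adjusted p = 0.0308). H2-Aa differed by 2.26 ± 0.83 and did not pass the test (adjusted p = 0.222). The test thus called 3 of 4 class II genes and 0 of 6 class I genes, where 3.9% of 8665 genes were called, 3.34% as higher. H2-Eb1 was at 0.11, 0.18 and 2.5 RPKM in the Il33+ WAT-MSC. It thus passed the filter on low values only through the endothelial libraries, and its call adds no support to the count. The median difference was 3.00 over the class II genes, 0.40 over the class I genes and -0.18 over all genes tested. Of the class I genes, H2-K1 differed by 0.87 ± 0.41 (adjusted p = 0.362), the others differed by 0.10 to 0.52, and the smallest unadjusted p of the 6 was 0.0631.

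The class II calls in endothelial cells leaned on single libraries to different degrees. Cd74 was called in 15 of 15 alternative settings (log2 difference 4.67 to 5.80), H2-Ab1 in 14 and H2-Eb1 in 9. Without replicate 2 of the endothelial cells, H2-Ab1 (2.89, adjusted p = 0.0682) and H2-Eb1 (2.44, adjusted p = 0.193) were not called. That library also had the most RNA of macrophage markers, with a sum of 242.2 RPKM over 9 genes against 18.46 and 65.32 in replicates 1 and 3. C1qb, a complement gene of tissue macrophages, was at 22.71 there and the receptor Csf1r at 16.05, and H2-Aa was at its highest of all libraries. The part of these markers in the class II levels of replicate 2 was not tested. Replicate 1 of the endothelial cells had the lowest leukocyte sum of the population, 13.22 against 71.54 and 22.86, and 271.95 RPKM of Cd74, 17.38 of H2-Aa and 30.2 of H2-Ab1. Its markers were uneven, with Tyrobp at 0, Laptm5 at 0.01, C1qb at 0.03 and Ctss at 0.04, but Lcp1 at 9.26, Lyz2 at 7.59, Cd14 at 6.2, Fcer1g at 2.96 and Mrc1 at 2.48. This was also the library with the most transcripts listed at 0, and Zbtb46 was at the 22.47 RPKM given above. The part of leukocytes in the class II levels of this library was not tested. The ratio of Cd74 to the summed I-A chains was 5.716 in replicate 1, 1.662 in replicate 2 and 2.775 in replicate 3.

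**Figure D2:**
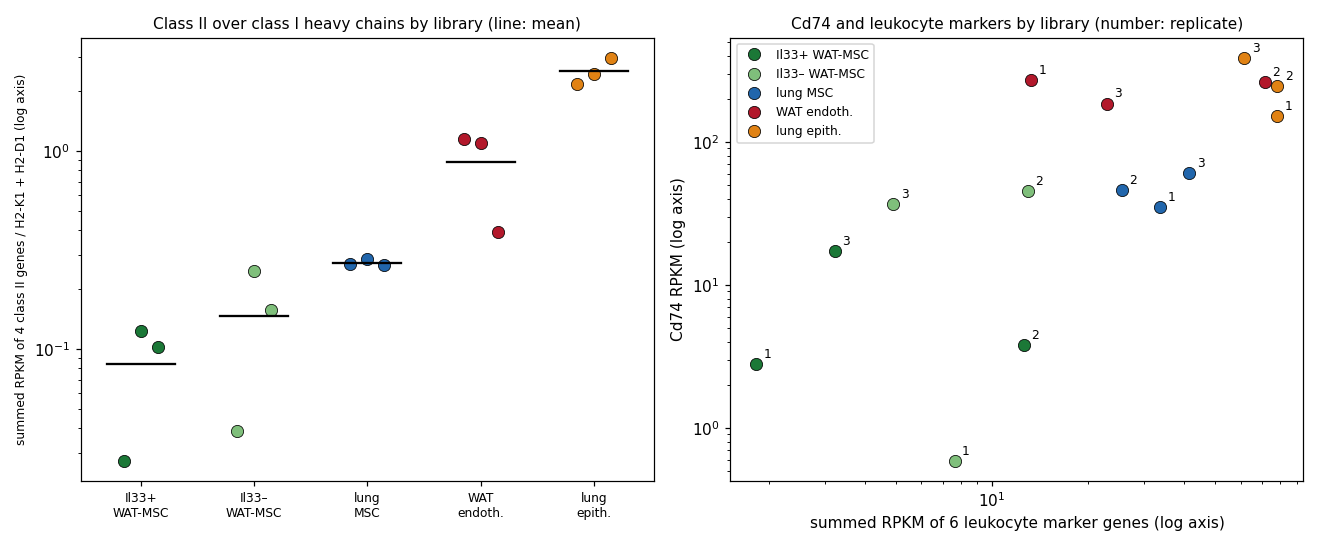
Left, summed RPKM of the 4 class II genes divided by that of H2-K1 and H2-D1, by library (points, replicates 1 to 3 from left to right; lines, means; log axis), which ranges from 0.02731 in the Il33+ WAT-MSC to 2.955 in the epithelial cells. Right, Cd74 RPKM against the summed RPKM of 6 leukocyte markers in the same libraries on log axes, where replicate 1 of the endothelial cells has 271.95 RPKM of Cd74 at a marker sum of 13.22 and the lung MSC have 34.91 to 60.22 at 25.49 to 41.41.

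MSC of lung and WAT sorted as Il33+ were compared to see whether the tissue sets a difference. This comparison and the one before share the Il33+ WAT-MSC libraries. In lung MSC, Cd74 was higher by 2.76 ± 0.50, 6.78-fold (adjusted p = 0.00861, n = 3 in each group), and H2-Ab1 by 1.84 ± 0.38, 3.59-fold (adjusted p = 0.0173). H2-Eb1 differed by 1.14 ± 0.49 (adjusted p = 0.263) and H2-Aa by 1.09 ± 0.64 (adjusted p = 0.432). The 2 genes called of 10 stand beside 6% of 8554 genes called, 3.5% as higher. No class I gene was called, and their differences ranged from -0.42 for Tap1 to 0.46 for Tapbp, with a smallest unadjusted p of 0.136. In the fit of all 15 libraries, neither Cd74 (adjusted p = 0.144) nor H2-Ab1 (adjusted p = 0.268) was called, and H2-Ab1 was lost on leaving out any one of the lung MSC libraries (adjusted p = 0.0699 to 0.0815). Without replicate 2 of the Il33+ WAT-MSC, H2-Aa was called as well (1.94, adjusted p = 0.025).

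RNA of several other cell types was also higher in the lung MSC, and mesothelial markers went the other way. Of 6 mesothelial markers tested 5 were lower than in Il33+ WAT-MSC, and these passed the filter only through the WAT libraries. Their list summed to 4.7 to 6.81 RPKM in the lung MSC and 33.91 to 109.6 in the Il33+ WAT-MSC. Thy1, the only gene of the T cell list tested, was lower by 1.68 ± 0.29 (adjusted p = 0.00682). It was at 30.05, 53.23 and 35.76 RPKM in the Il33+ WAT-MSC and 7.76, 11.64 and 16.03 in the lung MSC. The paper counts CD90, the product of Thy1, among the markers of WAT stromal cells. The difference in Thy1 therefore cannot be read as a difference in T cell RNA, which was not tested. Of leukocyte markers, 3 of 5 tested were higher than in Il33+ WAT-MSC (Laptm5, Lcp1 and Cd53), as were 5 of 7 macrophage markers, among them Lyz2 by 4.85 ± 0.22. Of 6 alveolar macrophage markers tested 4 were higher, led by Chil3, which was at a mean of 44.76 RPKM in lung MSC and 0.04667 in Il33+ WAT-MSC. Of 6 type 2 pneumocyte markers tested 4 were higher, and 3 of 4 club cell markers. Of 6 endothelial markers tested 2 were higher, Cdh5 by 1.56 (adjusted p = 0.018) and Pecam1 by 1.47 (adjusted p = 0.0215). Over all genes 3.5% were called as higher. Cst3, the only dendritic cell marker tested, was higher by 1.66 ± 0.27 (adjusted p = 0.00428), and the MSC of both tissues expressed it. Of the markers called as higher, only Lyz2, Cst3, the club cell gene Cbr2, Cdh5 and Pecam1 reached 1 RPKM in every Il33+ WAT-MSC library. The others passed the filter only through the lung libraries, and their calls add no support to these counts. Macrophages, type 2 pneumocytes and endothelial cells can all express class II genes, and their part in the class II levels of the lung MSC was not tested. The ratio of the summed class II genes to H2-K1 and H2-D1 was 0.2682, 0.2841 and 0.2649 in the lung MSC, the narrowest range of any population.

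Il33+ and Il33- WAT-MSC differ in the gate only by citrine, and no MHC gene was called between them. Of 8448 genes tested, 1.57% were called by limma and 11.6% had an unadjusted p under 0.05. Of the 10 members 0 met either rule, which is close to these shares for so few genes. Cd74 was at a mean of 7.93 ± 8.02 RPKM (SD, n = 3) in Il33+ cells and 27.6 ± 23.8 in Il33- cells, and the log2 difference was -1.02 ± 1.06 (adjusted p = 0.785). The other members differed by -0.71 (H2-Eb1, adjusted p = 0.707) to 0.32 (Psmb8, adjusted p = 0.895). Libraries of the populations overlapped for all 10 genes, where 17.5% of genes did not overlap. Replicate 1 of the Il33- WAT-MSC was the lowest of its population for all 10 genes, with Psmb8 at 0.2 RPKM. Without it the difference in Cd74 was -2.60 and still not called (adjusted p = 0.0824), which was the smallest adjusted p of this gene in 15 settings. The leukocyte sum was 7.63, 12.93 and 4.91 RPKM in replicates 1, 2 and 3 of the Il33- WAT-MSC and the macrophage sum 36.81, 62.02 and 20.89, against 1.83 to 12.57 and 9.49 to 16.42 in the Il33+ WAT-MSC. Replicate 2, with the most Cd74 of the WAT-MSC, had the highest of both sums among them, and the part of these cells in the difference was not tested.

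B2m was the most abundant of the 10 genes in every library except replicates 2 and 3 of the epithelial cells, where Cd74 was higher. It was at 445.34, 832.52 and 850.12 RPKM in the Il33+ WAT-MSC, 355.04, 581.86 and 889.62 in the Il33- WAT-MSC, 522.72, 603.84 and 919.77 in the lung MSC, 573.59, 697.29 and 960.87 in the endothelial cells and 172.22, 182.45 and 193.46 in the epithelial cells. The 4 other populations overlapped, and all their libraries exceeded the epithelial ones. H2-D1 showed the same separation, at 131.25, 174.87 and 170.43 in the Il33+ WAT-MSC, 108.82, 185.85 and 205.23 in the Il33- WAT-MSC, 128.9, 166.03 and 215.8 in the lung MSC, 177.07, 179.17 and 364.25 in the endothelial cells and 54.4, 65.57 and 82.75 in the epithelial cells. H2-K1 was at 84.02, 98.02 and 140.77, at 74.5, 137.61 and 160.75, at 105.16, 120.15 and 165.94, at 105.16, 221.45 and 308.6 and at 46.7, 80.07 and 99.86 in the same order of populations. For H2-K1 the epithelial libraries overlapped with both WAT-MSC populations. H2-K1 and H2-D1 are closely similar to each other and to the H2-Q genes, and reads could be divided among them by the alignment, so their separate levels are uncertain.

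The genes of peptide supply were far below the heavy chains. Tapbp was at 19.69, 10.44 and 21.97 RPKM in the Il33+ WAT-MSC, 11.16, 18.41 and 20.02 in the Il33- WAT-MSC, 18.94, 23.28 and 28.49 in the lung MSC, 17.89, 20.86 and 28.96 in the endothelial cells and 2.47, 6.93 and 6.95 in the epithelial cells. Here too the epithelial libraries were below all others. Tap1 had a mean of 1.35 RPKM in the epithelial cells and 6.07 in the endothelial cells, with all populations overlapping their neighbours. The endothelial mean of Tap1 came from libraries at 0.57, 9.91 and 7.74. Psmb8 was at 0.49 to 2.66 in the epithelial cells and 3.0 to 3.62 in the lung MSC, and its means in the other populations were 3.48 to 4.82 with wide overlap.

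Lung epithelial cells were compared with lung Il33+ MSC, another cell type of the same tissue, and the classes moved in opposite directions. All 4 class II genes were higher and 3 of 6 class I genes lower in the epithelial cells. Cd74 was higher by 2.38 ± 0.35, 5.21-fold (adjusted p = 0.00042, n = 3 in each group), and H2-Eb1 by 1.75 ± 0.34 (adjusted p = 0.00256). H2-Aa was higher by 1.64 ± 0.32 (adjusted p = 0.00241) and H2-Ab1 by 1.38 ± 0.33 (adjusted p = 0.00796). Among class I genes, Tapbp fell by 2.01 ± 0.35, 4.03-fold (adjusted p = 0.00127), and B2m fell by 1.85 ± 0.25, 3.61-fold (adjusted p = 0.000291). H2-D1 fell by 1.31 ± 0.26, 2.48-fold (adjusted p = 0.00251), and H2-K1 differed by -0.82 ± 0.31 (adjusted p = 0.0568). Psmb8 differed by -0.75 ± 0.36 (adjusted p = 0.129) and Tap1 by -0.47 ± 0.47 (adjusted p = 0.458). These 7 calls among 10 genes stand beside 43% of 9352 genes called in this comparison, 18.5% as higher and 24.4% as lower. Libraries did not overlap for 9 of the members, against 53.4% of all genes.

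The direction of the class I difference was checked against scaling, since Scgb1a1 made up much of the summed RPKM of each epithelial library. Rescaling to equal sums of RPKM follows that length-scaled share, which need not equal the share of reads. Of the genes called, 43.1% were higher in the epithelial cells as deposited, 55.7% after median-ratio scaling and 66.8% when Scgb1a1 was left out and the other genes were rescaled to equal sums, an alternative chosen after seeing the data. The median of all genes moved by 0.28 and 0.51 under these scalings. After the latter, B2m fell by 1.20 ± 0.20 (adjusted p = 0.000883), H2-D1 fell by 0.66 ± 0.19 (adjusted p = 0.017) and Tapbp fell by 1.44 ± 0.30 (adjusted p = 0.0032), while H2-K1 differed by -0.175 ± 0.225 (adjusted p = 0.549). The class II genes were then higher by 2.01 (H2-Ab1) to 3.03 (Cd74). In the fit of all 15 libraries, where populations share an estimate of the spread, Cd74 (adjusted p = 0.059), H2-Aa (adjusted p = 0.0776) and H2-Ab1 (adjusted p = 0.167) were not called, and H2-Eb1 and the 3 class I genes were.

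Against the endothelial cells, which share their libraries with the comparison in WAT above and differ from the lung epithelium in tissue as well as cell type, 3 of 6 class I genes were lower. B2m fell by 1.99 ± 0.28, 3.97-fold (adjusted p = 0.00128, n = 3 in each group), Tapbp fell by 1.94 ± 0.41 (adjusted p = 0.00886) and H2-D1 fell by 1.75 ± 0.35 (adjusted p = 0.00695). H2-K1 differed by -1.41 ± 0.45 (adjusted p = 0.0506) and was called in 6 of 15 alternative settings. Psmb8 (adjusted p = 0.203) and Tap1 (adjusted p = 0.267) did not pass either. The 3 calls stand beside 27.6% of 9261 genes called, 14.9% as lower. No class II gene was called, with differences of 0.00 ± 0.44 for H2-Ab1, 0.04 ± 0.38 for Cd74, 0.11 ± 0.39 for H2-Eb1 and 0.47 ± 0.58 for H2-Aa and a smallest unadjusted p of 0.443. Missing the threshold does not show equal levels. Of the genes called, 46.2% were higher as deposited, 55% after median-ratio scaling and 55.8% without Scgb1a1, under which B2m fell by 1.71, H2-D1 fell by 1.48 and Tapbp fell by 1.73 with calls. Without replicate 1 of the endothelial cells, where Tap1 was at 0.57 and Psmb8 at 2.0, the count of members called rose from 3 to 6, with H2-K1 (adjusted p = 0.0067), Tap1 (adjusted p = 0.00949) and Psmb8 (adjusted p = 0.0493) added as lower.

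**Figure D3:**
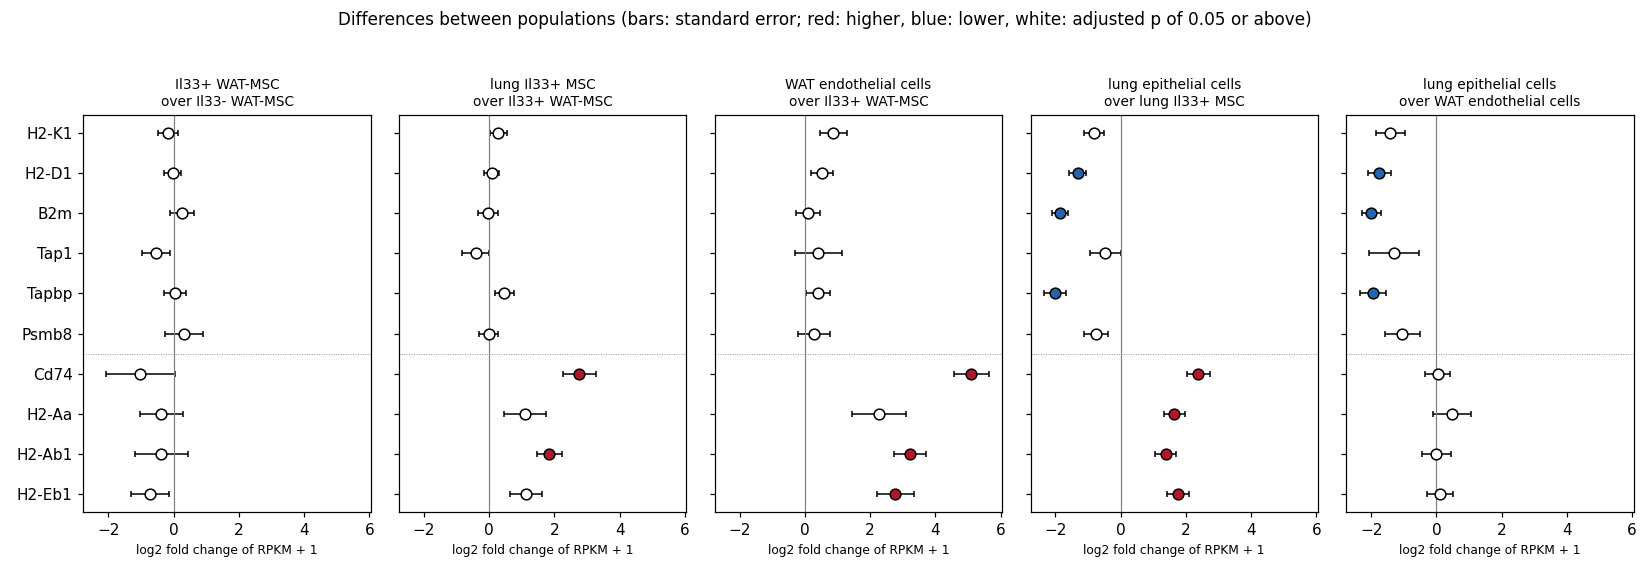
Log2 differences of RPKM + 1 for the 10 genes (rows) in the 5 comparisons (panels), with standard errors from limma and 3 libraries in each group. Filled points passed an adjusted p of 0.05, red as higher and blue as lower in the population named first. Class II genes lie to the right where lung MSC or endothelial cells are set against WAT-MSC and epithelial cells against lung MSC, with Cd74 at 2.76, 5.10 and 2.38, and class I genes to the left in both epithelial panels, with B2m at -1.85 and -1.99.

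The balance of the classes does not depend on the scaling of a library, because both parts of a ratio come from the same one. Summed RPKM of the 4 class II genes over that of H2-K1 and H2-D1 was 0.02731, 0.1234 and 0.1019 in the Il33+ WAT-MSC and 0.03868, 0.2473 and 0.1567 in the Il33- WAT-MSC. It was 0.2682, 0.2841 and 0.2649 in the lung MSC, 1.156, 1.096 and 0.3896 in the endothelial cells and 2.176, 2.443 and 2.955 in the epithelial cells. Endothelial libraries were above all MSC libraries and below all epithelial ones, and the lung MSC were above all WAT-MSC. The ratio of the light chain to the heavy chains was described as well, without a test. B2m over the sum of H2-K1 and H2-D1 was 1.799 to 3.051 in the MSC, 1.428 to 2.032 in the endothelial cells and 1.059 to 1.703 in the epithelial cells, with overlap between neighbours.

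Leukocyte RNA was present in the epithelial libraries too, with a marker sum of 77.91, 78.27 and 61.53 RPKM in replicates 1, 2 and 3, which overlapped with the endothelial cells (up to 71.54), and Cd74 there was at 152.58 to 386.81. The macrophage markers summed to 704, 1119 and 1359, of which Lyz2, a gene that type 2 pneumocytes also express, gave 658.02, 1059.35 and 1301.32. The type 2 pneumocyte markers summed to 1689, 1851 and 3515. Replicate 3, with the most Cd74, thus had the lowest leukocyte sum and the highest macrophage and pneumocyte sums of the population. Between epithelial cells and lung MSC 1 of 6 leukocyte markers tested and 2 of 8 macrophage markers were higher, where 18.5% of all genes were. The part of leukocytes and pneumocytes in the epithelial class II levels was not tested.

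Other class I genes were examined from a list of nonclassical heavy chains and related molecules, of which 12 of 22 were in the table. In endothelial cells 3 of 11 tested were higher than in Il33+ WAT-MSC, all of the Q region. H2-Q7 was at 34.73, 18.65 and 39.41 RPKM in the endothelial cells and 0.06, 0.97 and 1.47 in the Il33+ WAT-MSC, a difference of 4.14 ± 0.46 (adjusted p = 0.00163). H2-Q6 was higher by 3.24 ± 0.47 (adjusted p = 0.00595) and H2-Q8 by 1.76 ± 0.41 (adjusted p = 0.05, below the threshold before rounding). In the Il33+ WAT-MSC, H2-Q6 was at no more than 0.4 and H2-Q8 at no more than 0.09, and H2-Q7 was below 1 RPKM in all but replicate 3. All 3 passed the filter on low values only through the endothelial libraries, and their calls add no support to the count. The Q genes are close copies, so which of them gave the reads is uncertain. The lung MSC had 0 of 9 called. In epithelial cells 4 of 9 were lower than in lung MSC and 7 of 11 lower than in endothelial cells, with 0 higher in either, where 24.4% and 14.9% of all genes were lower. Fcgrt, the neonatal Fc receptor, which pairs with B2m but carries immunoglobulin G and not peptides, was at 0.19, 2.01 and 1.81 in the epithelial cells and 23.04, 27.21 and 30.65 in the lung MSC, a difference of -3.69 ± 0.37 (adjusted p = 3.76e-05). H2-Q4 (-2.20 ± 0.35) and H2-T9 (-1.52 ± 0.49, adjusted p = 0.032) were the next of that list. Fcgrt, H2-Q4 and H2-T9 did not reach 1 RPKM in every epithelial library. They passed the filter only through the lung MSC libraries, and their calls add no support to the count. In the endothelial comparison H2-Q6, at 0, 2.38 and 0.72 in the epithelial cells, and H2-Q8, at no more than 0.53, passed it only through the endothelial libraries. The same holds there for Fcgrt, H2-Q4 and H2-T9. Calls of any of these genes add no support to the 7 of 11.

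Peptide supply and loading were followed with 15 further genes, all in the table. Between WAT-MSC populations, tissues of MSC, or endothelial cells and MSC, 0 were called. In epithelial cells against lung MSC 3 of 15 were lower and 2 higher, which is no more than the 24.4% and 18.5% of all genes. The lower ones were chaperones of the endoplasmic reticulum that act on many proteins, Calr (-1.97 ± 0.40), Hspa5 (-1.78 ± 0.37) and Pdia3 (-1.04 ± 0.20). The higher ones, Psmb5 (0.82 ± 0.23) and Psmb6 (0.77 ± 0.26), are constitutive proteasome subunits. Psmb7, another of these, was not called (0.34 ± 0.21, adjusted p = 0.241). Psmb5 is the subunit that Psmb8 replaces in the immunoproteasome. Against endothelial cells 0 of 15 were called. Psmb9, an immunoproteasome subunit, was at 11.47, 2.67 and 17.38 RPKM in the endothelial cells and 0.12, 2.36 and 1.84 in the Il33+ WAT-MSC, without a call.

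Of 19 other class II genes 11 were in the table. Lung MSC had 1 of 9 higher than Il33+ WAT-MSC, the cathepsin Ctss, which trims the invariant chain, at 4.66, 6.9 and 8.44 RPKM against 0.02, 0.38 and 0.4 (2.58 ± 0.31, adjusted p = 0.000888). Ctss is also on the macrophage list, and it passed the filter only through the lung libraries. Endothelial cells had 0 of 9 called, and Ctss there was at 0.04, 4.79 and 2.56. In epithelial cells 3 of 11 were higher than in lung MSC and 3 lower, close to the 18.5% and 24.4% of all genes. H2-DMa and H2-DMb1, whose product removes the last fragment of the invariant chain, were higher by 1.17 ± 0.28 (adjusted p = 0.00802) and 1.20 ± 0.36 (adjusted p = 0.023), at means of 2.42 and 2.87 RPKM. In the lung MSC H2-DMa was at 0.22, 0.38 and 1.07 and H2-DMb1 at 0.13, 0.75 and 1.14. Both thus passed the filter only through the epithelial libraries, and their calls add no support to the count. Mif, a ligand of Cd74, was higher by 1.22 ± 0.36. The lysosomal proteases Ctsl (-3.91 ± 0.20, adjusted p = 1.04e-06), Ctsb (-1.95 ± 0.21) and Ctsd (-0.74 ± 0.24) were lower. Ctsl was at 6.93, 8.62 and 7.94 in the epithelial cells and 113.97, 143.1 and 138.63 in the lung MSC.

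Among regulators, 15 of 18 genes were in the table, and Ciita and Nlrc5 were not analysed here. The RFX subunit Rfx5 was at means of 2.15 to 3.76 RPKM in all 5 populations. In the comparisons among MSC and endothelial cells 0 of 14 regulators were called. In epithelial cells 6 of 14 were lower than in lung MSC, and 2 of 13 lower than in endothelial cells, where 24.4% and 14.9% of all genes were lower. Irf1, an interferon-induced activator of class I genes, was at 3.93, 9.09 and 14.25 in the epithelial cells, 38.27, 50.41 and 44.99 in the lung MSC and 51.12, 29.61 and 66.73 in the endothelial cells. It was lower in the epithelial cells in both comparisons, with differences of -2.31 ± 0.38 (adjusted p = 0.000842) and -2.38 ± 0.48 (adjusted p = 0.00686). The kinase Jak1, which signals for interferon receptors, was also lower in both, with differences of -1.63 ± 0.24 and -1.54 ± 0.28. Socs1, an inhibitor of that signal, was lower against lung MSC (-2.04 ± 0.25). Socs1 and Irf8, another of the 6, did not reach 1 RPKM in every epithelial library. They passed the filter only through the lung MSC libraries, and their calls add no support to the count.

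Of 10 molecules that give T cells a second signal 5 were in the table, and Cd86 and Cd40 were not among them. Icosl, the ligand of the costimulatory receptor ICOS, set lung MSC apart, at 26.03, 33.89 and 21.21 RPKM there and no more than 6.23 in any other library. It was higher than in Il33+ WAT-MSC by 2.53 ± 0.27 (adjusted p = 0.000419) and lower in epithelial cells than in lung MSC, with a difference of -3.70 ± 0.32 (adjusted p = 1.64e-05). The inhibitory ligand Cd274 was at 5.59, 24.82 and 18.32 in the endothelial cells and 3.59, 8.92 and 8.95 in the Il33+ WAT-MSC, without a call.

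The genes closest in pattern to each class were found by Pearson correlation over the 15 libraries with the mean log2 level of the class, among 6590 genes. For class I these were H2-Q4 (0.931), Lrrc8a (0.908), Rab7 (0.907), Itga5 (0.905) and Akap2 (0.901). Itga5, an integrin subunit, had means of 17.56 to 26.87 RPKM in the MSC and endothelial populations and 2.48 in the epithelial cells. For class II they were Fnbp1l (0.921), Cd36 (0.906), Hspb6 (0.906), Apobec3 (0.904) and Epas1 (0.900). Cd36, a scavenger receptor of endothelial cells, had means of 101.1 in the endothelial, 39.46 in the epithelial and 3.30 in the Il33+ WAT-MSC libraries. Epas1, a hypoxia-inducible factor, had means of 193.5, 189.6 and 21.21 in the same populations.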

How the data were processed

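Cells were sorted by flow cytometry, and RNA was amplified (Ovation RNA-seq System V2), fragmented and sequenced. The submitters' processing notes name mm10, TopHat2 and Partek. The authors aligned reads with TopHat2 and deposited RPKM values with 2 decimals for 12698 transcripts of 15 libraries, with the alignments of each library. How reads shared by similar genes were assigned is not given in the sources used here. Counts behind the values were not used here, so no counting interval is given. Columns were assigned through the sequencing library names in the labels, leaving 0 unmatched.

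RPKM was summed per symbol. Log2(RPKM + 1) was fitted with limma 3.58.1 (R 4.3.3, lmFit and eBayes with trend) on the 6 libraries of each comparison, over genes with RPKM of at least 1 in at least 3 libraries, and p-values were adjusted after Benjamini and Hochberg and called below 0.05. The log2(RPKM + 1) scale understates changes of low genes. The fit was tested on simulated data. The alternatives were 15 settings a comparison: replicate block, sequencing lane as covariate, quantile normalization, median-ratio scaling, a joint fit of the 15 libraries, pseudocount 0.1, no filter, RPKM of at least 5, most abundant transcript, and each of 6 libraries left out. Median-ratio scaling moved the median of all genes by 0.13 in endothelial over WAT-MSC and 0.18 in epithelial over endothelial cells. The members and gene lists were chosen with earlier results of these data known. Named from each list were up to 3 called genes with the largest difference in a comparison, and others after their values were seen. Promoters came from RefSeq, and were searched for exact letters on both strands. Figures were drawn with matplotlib 3.10.9.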

Additional observations from a re-analysis of the deposited data

How the results depend on the processing

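Of 735 values of single members under 15 settings, 702 stayed on the side of the threshold reported above, 17 gained a call and 16 lost one, and no called value changed sign. In 17 pairs of member and comparison, 44 values that were not called changed sign, as small differences did.

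The number of genes called changed as follows. For Il33+ over Il33- WAT-MSC it was 133, with 45 when no filter was applied and 49 to 121 with one library left out, and no member was called in any of these. For lung over WAT MSC it was 513, with 336 in the fit of all 15 libraries and 191 to 447 with one library left out. Members called there were 2, with 0 in the fit of all 15, 1 with no filter and 1 to 3 with one library left out. For endothelial cells over WAT-MSC the number of genes was 338, with 805 in the fit of all 15 and 56 to 261 with one library left out, the lowest without replicate 2 of the endothelial cells, and the members called were 3, with 1 to 3. For epithelial cells over lung MSC the members called were 7, with 4 in the fit of all 15. For epithelial over endothelial cells the number of genes was 2560, with 1085 to 2668 with one library left out, the lowest without replicate 2 of the epithelial cells, and members were 3, with 5 under the lane covariate and 3 to 6 with one library left out. The cause of these changes was not tested, but a fit on 5 libraries has fewer samples.

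Correlations between same-numbered deviations, over genes that passed the filter, were low, at -0.067 to 0.155. Some members still shared an order, as B2m and H2-K1 rose from replicate 1 to 2 to 3 in every population. Replicate 1 was on lane 1 and replicate 3 on lane 2 in every population. The part of replicate and lane in this order was not tested. When a replicate block was added, 232 genes were called for Il33+ over Il33- WAT-MSC, and H2-Aa (endothelial over WAT-MSC, adjusted p = 0.008) and H2-K1 (epithelial over lung MSC, 0.00759, and over endothelial cells, 0.00387) gained calls.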
